A study of Rattus norvegicus with 16 samples.

Results

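The genes described here are 10 enzymes that remove reactive oxygen species or supply the means to do so: Sod1, Sod2, Sod3, Cat, Gpx1, Gpx3, Hmox1, Nqo1, Gclc and Gclm. They were chosen by symbol, with earlier results of these data known. All 10 were found among the 17147 genes of the table, and all 10 were among the 11658 genes with enough fragments to be tested. The study sequenced messenger RNA from the supraspinatus muscle, a rotator cuff muscle of the shoulder, of Sprague Dawley rats in 4 groups of 4 libraries. The 0 day group came from unoperated controls. The 10, 30 and 60 day groups were sampled at those times after surgery on both shoulders, in which the supraspinatus was given a full-thickness tear and its motor nerve was cut by suprascapular neurectomy. The labels list no group with the tear alone, the neurectomy alone or a sham operation, so the effects of these cannot be told apart. Age, sex and the number of animals behind a library are not given in the sources used here. The labels do not state that the 4 libraries of a group came from separate animals, so the p-values measure the spread between libraries.

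Superoxide, formed where the respiratory chain leaks electrons and by NADPH oxidases, is converted to hydrogen peroxide by superoxide dismutases. Catalase and the glutathione peroxidases then reduce the peroxide, the latter at the expense of glutathione, whose synthesis is limited by glutamate-cysteine ligase. Haem oxygenase and NAD(P)H quinone dehydrogenase remove haem and quinones, which otherwise feed further oxidation. Both are known targets of the transcription factor NRF2, as are both subunits of the ligase. In skeletal muscle these enzymes are known for limiting the oxidative damage that accompanies disuse, denervation and inflammation.

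Library totals ran from 17184281 to 39903266 fragments, and the members' counts from 139 (Hmox1) to 17936 (Sod2). Levels are given in CPM (counts per 1000000 fragments) after scaling by the trimmed mean of M values (TMM), which assumes that most genes do not differ between libraries. They are not per transcript length, so levels were compared within a gene and not between genes. The sum of 5 muscle fibre markers was 174000 to 193000 CPM at 0 days, 54500 to 57100 at 10 days, 82100 to 118000 at 30 days and 98500 to 116000 at 60 days. Not every fibre marker fell, as 1 was called higher and 4 lower at both 10 and 30 days against 0 days. By 60 days the calls were 1 higher, 3 lower and 1 not called. Scaling by library totals alone moved the median log2 fold change of all tested genes from 0.06, 0.05 and 0.04 at 10, 30 and 60 days against 0 days to 0.72, 0.54 and 0.45, so the changes below are relative to the typical gene. Of 8 macrophage markers, 6 rose at 10 days and 8 at each later time, and their sum was 21.4 to 41.4 CPM at 0 days, 70.0 to 95.4 at 10 days, 105 to 132 CPM at 30 days and 83.8 to 154 CPM at 60 days. The 6 fibroblast markers summed to 467 to 979, 867 to 2480, 1430 to 2260 and 1340 to 2810 CPM at 0, 10, 30 and 60 days, with 4, 6 and 6 called higher. The 4 erythroid markers summed to 601 to 1950 CPM at 0 days, 198 to 262 at 10 days, 275 to 699 at 30 days and 352 to 868 CPM at 60 days. The 4 Schwann cell markers summed to 41.9 to 69.3, 17.2 to 33.9, 40.4 to 69.4 and 81.5 to 184 CPM at those times. The 4 neutrophil markers summed to at most 1.03 CPM at 0 days and 8.54 CPM after injury, and Elane was at 0 throughout the 0, 10 and 30 day groups. No other marker on these lists was at 0 throughout a group. Their part in the members' results was not tested, and in whole muscle fewer cells of a type and less RNA per cell cannot be told apart.

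At 10 days the transcripts of the mitochondrial and extracellular superoxide dismutases (Sod2 and Sod3) had fallen 2.34-fold and 2.83-fold. Those of catalase, extracellular glutathione peroxidase (Gpx3), haem oxygenase 1 and quinone dehydrogenase 1 had risen 2.46-fold, 3.74-fold, 4.72-fold and 3.58-fold. By 30 days Sod3 and Cat were not distinguishable from the unoperated level, and Nqo1 was 1.30-fold above it. Sod2 was still lower, and Gpx3 and Hmox1 still higher, at 30 and 60 days. With TMM scaling, Sod1 and Gpx1 were called higher only in the 60 day group among the 3 comparisons with 0 days. With library totals Sod1 was also called higher at 10 and 30 days (0.65 and 0.57).

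In counts, 5 members were called higher and 3 lower at 10 days against 0 days at an adjusted p under 0.05 (edgeR quasi-likelihood test, Benjamini-Hochberg adjustment over all tested genes). Of all tested genes 62.7% were called, 33.3% higher and 29.4% lower. The groups of 8 members did not overlap, as for 59.0% of all tested genes. At 30 days against 0 days 3 members were higher and 3 lower, where 64.6% of tested genes were called, 33.7% higher and 30.9% lower, and 6 did not overlap (60.2%). At 60 days against 0 days 4 were higher and 2 lower, where 59.0% were called, 29.9% higher and 29.1% lower, and 7 did not overlap (50%). These shares lie near or modestly above the background, so the number of members called is not a result about the enzymes. Nor is the joint test over the 4 groups, which called all 10 members and 84.7% of all tested genes. In size with TMM scaling, 6 of 10 members differed at least 2-fold at 10 days, against 23.2% of all tested genes. At 30 days 2 did, against 22.5%, and at 60 days 2, against 18.7%. With library totals the Sod2 means were 499.9 CPM at 0 days and 336.9 CPM at 10 days. Those of Sod3 were 58.55 and 32.61 CPM, and both genes were then less than 2-fold apart. Gclm, at 15.55 and 31.51 CPM, was then more than 2-fold apart. The share of all tested genes at 2-fold was not counted with library totals. The median absolute log2 fold change of the members was 1.30, 0.27 and 0.44 at the 3 times, and that of all tested genes 0.47, 0.49 and 0.44. The members were chosen with earlier results of these data known. These sizes therefore describe the members and are not a test of them against all genes. The 3 comparisons share the 0 day libraries.

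Between the injured groups, 2 members were higher and 4 lower at 30 days than at 10 days, where 47.3% of tested genes were called, 23.0% higher and 24.3% lower, and 5 did not overlap (43.8%). From 30 to 60 days 3 were higher and 1 lower, where 22.6% were called, 10.3% higher and 12.4% lower. There 4 did not overlap (20.1%), and no member differed 2-fold. At 60 days against 10 days 4 were higher and 4 lower, where 61.1% were called, 29.1% higher and 31.9% lower, and 8 did not overlap (51.2%). Sod2, Gpx3 and Hmox1 were called in 1 direction at all 3 times against 0 days, as were 32.2% of all tested genes. The ratio of the highest to the lowest group mean was 4.72 for Hmox1, 3.74 for Gpx3, 3.58 for Nqo1, 2.83 for Sod3, 2.48 for Cat, 2.34 for Sod2, 2.18 for Gpx1, 1.79 for Gclm, 1.34 for Sod1 and 1.32 for Gclc.

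**Figure D1:**
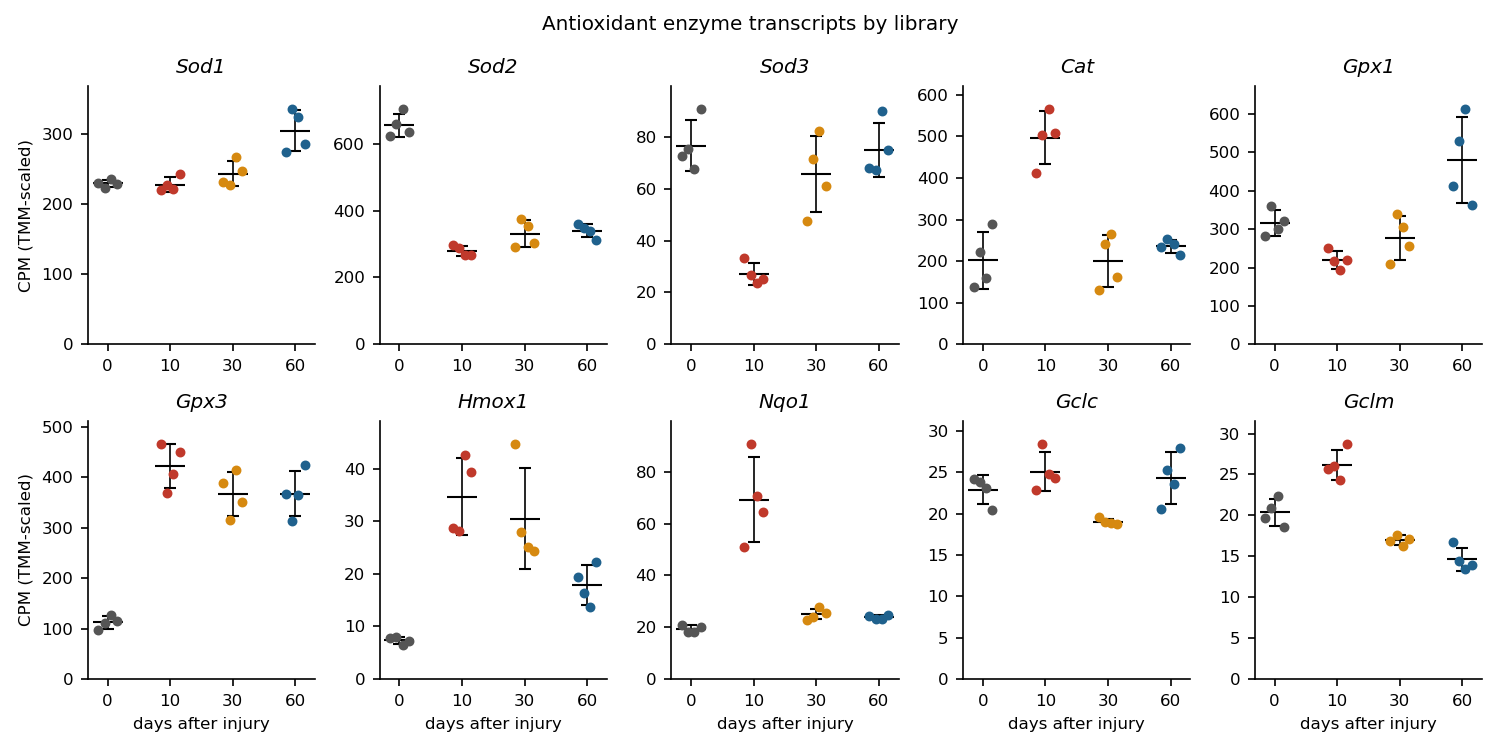
TMM-scaled CPM (y axis of each panel) of the 10 antioxidant enzymes by days after injury (x axis), 1 point for each of the 4 libraries a group, with the group mean and standard deviation. Gpx3 and Hmox1 lie above the unoperated libraries in all 12 injured libraries and Sod2 lies below them in all 12.

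Among the superoxide dismutases, Sod1, the copper-zinc enzyme of the cytosol, showed the least movement. Its levels were 231, 224, 235 and 229 CPM in the 4 unoperated libraries and 221, 227, 221 and 242 CPM at 10 days. They were 232, 227, 266 and 247 CPM at 30 days and 274, 335, 325 and 286 CPM at 60 days. The 60 day libraries were all above those of the other 3 groups, which overlapped. The log2 fold change was -0.01 ± 0.08 (SE) at 10 days (adjusted p = 0.907, edgeR), 0.08 ± 0.08 at 30 days (adjusted p = 0.351) and 0.41 ± 0.08 at 60 days (adjusted p = 0.000234). Sod1 was also higher at 60 than at 30 days (0.33, adjusted p = 0.00567, edgeR), a call lost with only those 2 groups in the fit (adjusted p = 0.0546). With library totals the 10 day value was 0.65 and called higher (adjusted p = 5.74e-07, edgeR). The 30 day value was called higher with library totals (0.57) and upper-quartile scaling (0.21).

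Sod2, the manganese enzyme of the mitochondrial matrix, had levels of 624, 658, 703 and 637 CPM at 0 days and of 297, 287, 268 and 267 CPM at 10 days. The levels were 292, 376, 354 and 303 CPM at 30 days and 361, 349, 338 and 313 CPM at 60 days. Every injured library lay below every unoperated one, and the injured groups lay close together. The log2 fold change was -1.23 ± 0.09 at 10 days (adjusted p = 4.86e-09, edgeR), -0.98 ± 0.09 at 30 days (adjusted p = 6.9e-08) and -0.95 ± 0.09 at 60 days (adjusted p = 1.93e-07). Sod2 was 0.28 ± 0.09 higher on the log2 scale at 60 than at 10 days (adjusted p = 0.0088, edgeR), a call that was lost with library totals (0.03). From 10 to 30 days the groups overlapped and the call (0.24, adjusted p = 0.0267, edgeR) was lost without any 1 of 4 libraries: replicates 3 and 4 at 10 days and replicates 2 and 3 at 30 days. It was also lost with library totals (0.07, adjusted p = 0.405), with only those 2 groups in the fit (adjusted p = 0.0705) and with the title letter (L or R) as a covariate (adjusted p = 0.0541).

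The promoter of Sod2 is shown because it is 1 of 2 among the members to hold the core letters of an antioxidant response element, the motif that NRF2 binds with a small MAF partner. Sequences are those of RefSeq on build GRCr8, from 250 bases before to 50 after the annotated start, and 8 of the 10 members had an entry, Hmox1 and Sod3 having none. The core was searched as TGACNNNGC on both strands and was found in 12.1% of 33469 promoters of that length. In Sod2 (chr1:50050119-50050418, minus strand) it lay on the strand opposite to the gene, 35 to 27 bases before the start, and capitals mark it.
Sod2: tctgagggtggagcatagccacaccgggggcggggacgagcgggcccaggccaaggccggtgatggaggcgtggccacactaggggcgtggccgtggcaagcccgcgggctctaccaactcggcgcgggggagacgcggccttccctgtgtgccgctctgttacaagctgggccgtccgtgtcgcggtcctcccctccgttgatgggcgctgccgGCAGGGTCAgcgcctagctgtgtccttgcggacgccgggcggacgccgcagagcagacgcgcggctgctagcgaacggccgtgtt
No member promoter held TGANTCA, the letters of an AP-1 site (7.33% of all promoters), or GTAAACA, those of a forkhead site (3.78%). A match is a description of these letters and not of binding.

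Sod3, the copper-zinc enzyme secreted to the matrix around cells, was measured at 72.7, 75.6, 67.8 and 90.7 CPM at 0 days. The 10 day libraries were at 33.2, 26.6, 23.5 and 25.0 CPM, the 30 day libraries at 47.8, 71.5, 82.2 and 61.2 CPM and the 60 day libraries at 68.1, 67.3, 90.0 and 75.0 CPM. The 10 day libraries were below all others, and the other 3 groups overlapped. Sod3 fell by 1.5 ± 0.16 on the log2 scale at 10 days (adjusted p = 4.87e-07, edgeR) and was 1.28 ± 0.16 higher at 30 than at 10 days (adjusted p = 8.73e-06). Against 0 days it stood at -0.22 ± 0.15 at 30 days (adjusted p = 0.209, edgeR) and at -0.03 ± 0.15 at 60 days (adjusted p = 0.872). Both values were above 0 with library totals (0.26 and 0.38), where the 60 day value was called higher (adjusted p = 0.0224, edgeR). The 30 day value was called with the title letter as a covariate (-0.31, adjusted p = 0.0489). The 6 endothelial markers, of which 6 were called lower at 10 days (1 with library totals, where their median was 0.11 in place of -0.55), summed to 307 to 362 CPM at 0 days, 174 to 261 at 10 days, 259 to 291 CPM at 30 days and 276 to 419 CPM at 60 days. The 4 smooth muscle and pericyte markers, of which 3 were called lower at 10 days (2 with library totals, and 1 higher), summed to 187 to 241, 93.2 to 132, 111 to 123 and 130 to 232 CPM. None of these 10 markers was at 0 throughout a group, and their part in the Sod3 result was not tested.

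Among the enzymes that remove peroxide, Cat encodes catalase, which splits hydrogen peroxide in peroxisomes without a reducing partner. Its levels were 138, 221, 160 and 289 CPM at 0 days and 412, 504, 565 and 508 CPM at 10 days. They were 132, 242, 266 and 163 CPM at 30 days and 234, 252, 241 and 215 CPM at 60 days. The 10 day libraries were above all others, while the unoperated and 30 day libraries each spread over about the same range. The log2 fold change was 1.30 ± 0.23 at 10 days (adjusted p = 0.000133, edgeR) and -1.31 ± 0.23 from 10 to 30 days (adjusted p = 0.000249). Against 0 days the 30 day value was -0.01 ± 0.22 (adjusted p = 0.974, edgeR), or 0.47 with library totals, and the 60 day value 0.22 ± 0.23 (adjusted p = 0.408), which was called higher with library totals (0.63, adjusted p = 0.0151). The RefSeq annotation of GRCr8 places LOC134486130 over part of Cat, and reads from overlapping genes cannot be told apart here.

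Gpx1, the glutathione peroxidase of cytosol and mitochondria, had levels of 283, 359, 299 and 322 CPM at 0 days and of 251, 216, 192 and 218 CPM at 10 days. It was at 209, 339, 304 and 255 CPM at 30 days and at 413, 529, 612 and 364 CPM at 60 days. The 10 day libraries were all below, and the 60 day libraries all above, the unoperated ones. Gpx1 fell by 0.53 ± 0.16 on the log2 scale at 10 days (adjusted p = 0.00965, edgeR), a direction that was not kept with library totals (0.13, adjusted p = 0.405). At 60 days Gpx1 was 0.60 ± 0.16 higher than at 0 days (adjusted p = 0.00458, edgeR) and 1.13 ± 0.16 higher than at 10 days (adjusted p = 1.97e-05). The 30 day value against 0 days was -0.19 ± 0.16 (adjusted p = 0.313, edgeR), or 0.30 with library totals. All 6 adipocyte markers were called higher at 60 days and none at 10 or 30 days, and they summed to 15.7 to 75.7 CPM at 0 days, 26.9 to 51.2 at 10 days, 34.8 to 62.4 at 30 days and 92.3 to 202 at 60 days. None of them was at 0 throughout a group, and their part in the 60 day values of Gpx1 and Sod1 was not tested.

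Gpx3, the secreted glutathione peroxidase that is best known from plasma, was at 96.6, 112, 127 and 115 CPM in the unoperated libraries. It was at 465, 368, 406 and 449 CPM at 10 days, at 388, 315, 415 and 351 CPM at 30 days and at 367, 314, 364 and 424 CPM at 60 days. All 12 injured libraries were above the unoperated ones, and the 3 injured groups overlapped with each other. The log2 fold change was 1.90 ± 0.12 at 10 days (adjusted p = 1.24e-09, edgeR), 1.70 ± 0.12 at 30 days (adjusted p = 4.58e-09) and 1.70 ± 0.12 at 60 days (adjusted p = 1.21e-08). None of the 3 comparisons between injured groups was called for Gpx3 (adjusted p of 0.133 to 0.996, edgeR). With library totals the values at 30 and 60 days were lower than at 10 days by calls of -0.37 and -0.45.

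**Figure D2:**
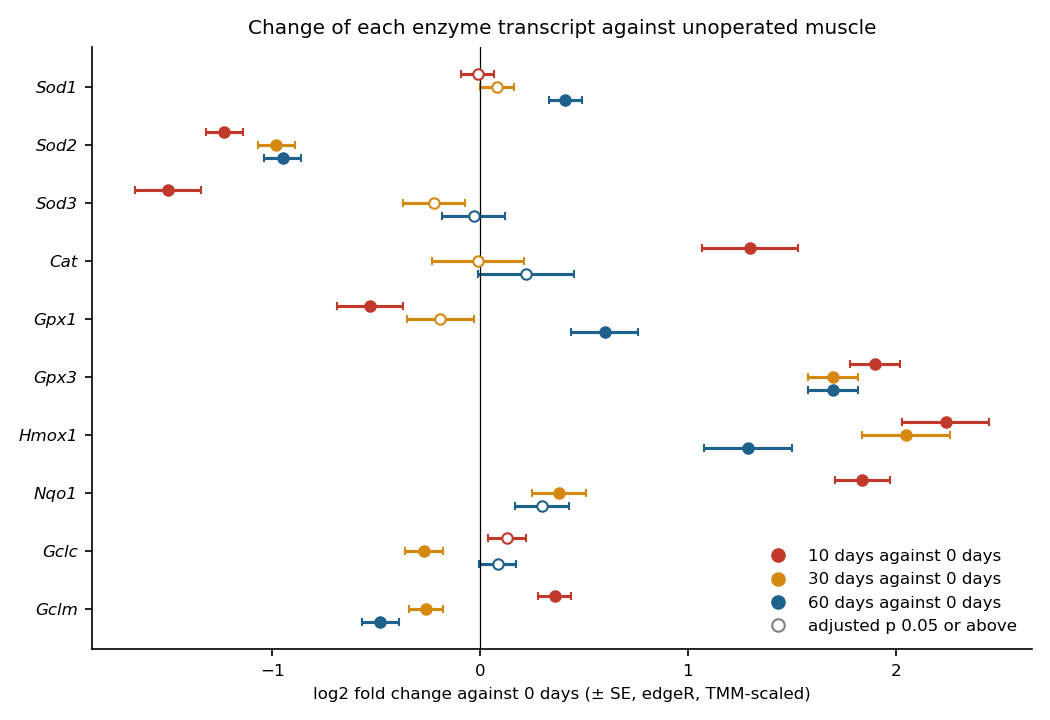
Log2 fold change (edgeR, TMM scaling) of each of the 10 enzymes against the unoperated group at 10, 30 and 60 days, with bars of 1 standard error and open circles where the adjusted p was 0.05 or above. Hmox1, Gpx3, Nqo1 and Cat are at or above 1.30 at 10 days, and Sod2 and Sod3 at or below -1.23. With library totals all values shift upward and Gpx1 at 10 days is at 0.13.

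Of the enzymes acting on haem and quinones, Hmox1 encodes the inducible haem oxygenase, which breaks haem down to biliverdin, iron and carbon monoxide. Its levels were 7.82, 7.96, 6.42 and 7.18 CPM at 0 days and 28.7, 28.1, 42.6 and 39.2 CPM at 10 days. At 30 days the levels were 44.6, 27.9, 25.1 and 24.4 CPM, and at 60 days 19.4, 16.3, 13.6 and 22.3 CPM. All 12 injured libraries were above the unoperated ones, and the 60 day libraries were below all those of 10 and 30 days. The log2 fold change was 2.24 ± 0.21 at 10 days (adjusted p = 1.72e-07, edgeR), 2.05 ± 0.21 at 30 days (adjusted p = 5.81e-07) and 1.29 ± 0.21 at 60 days (adjusted p = 9.38e-05). It fell by 0.76 ± 0.20 from 30 to 60 days (adjusted p = 0.0123, edgeR). From 10 to 30 days the value was -0.18 ± 0.19 (adjusted p = 0.45, edgeR). Replicate 1 at 30 days was the highest of the 16 libraries, and without it the latter value was -0.43 and called (adjusted p = 0.045). Hmox1 overlaps LOC134483111 in the RefSeq annotation of GRCr8, with the same limit as for Cat. Macrophages are a known site of Hmox1 expression, and the macrophage marker sums given above were higher in every injured library than in every unoperated one, which was not tested as a part of the Hmox1 result.

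Nqo1 encodes NAD(P)H quinone dehydrogenase 1, which reduces quinones by electron pairs and so avoids radical intermediates. Its levels were 20.9, 18.3, 18.2 and 20.0 CPM at 0 days and 50.9, 90.5, 70.7 and 64.5 CPM at 10 days. Later levels were 23.0, 24.1, 27.7 and 25.5 CPM at 30 days and 24.4, 23.0, 23.0 and 24.9 CPM at 60 days. The 10 day libraries stood apart from all others, and the 30 and 60 day libraries lay narrowly above the unoperated ones. Nqo1 rose by 1.84 ± 0.13 on the log2 scale at 10 days (adjusted p = 4.93e-09, edgeR) and fell by 1.46 ± 0.13 from 10 to 30 days (adjusted p = 3.44e-07). It was 0.38 ± 0.13 above 0 days at 30 days (adjusted p = 0.017, edgeR), a call lost without replicate 3 of 30 days (0.32, adjusted p = 0.0524). The 60 day value of 0.30 ± 0.13 was not called (adjusted p = 0.0534, edgeR), but it passed with library totals (0.71), with upper-quartile scaling (0.45), with a mean of at least 1 CPM as the filter (0.35), with only the 2 groups in the fit (0.33) and without unoperated replicate 1 or 10 day replicate 1 or 2. The Nqo1 promoter (chr19:52220218-52220517, minus strand) is shown beside the other sequences because this gene has the third highest 10 day fold change of the 10, and these 300 bases held none of the 3 motifs, so nothing is in capitals.
Nqo1: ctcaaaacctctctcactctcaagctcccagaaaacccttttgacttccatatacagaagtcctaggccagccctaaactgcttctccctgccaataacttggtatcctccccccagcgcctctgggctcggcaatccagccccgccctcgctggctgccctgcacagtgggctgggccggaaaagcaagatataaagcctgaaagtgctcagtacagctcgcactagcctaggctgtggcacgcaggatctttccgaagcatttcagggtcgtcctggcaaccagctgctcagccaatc
The absence of a match says only that these letters are not in this window.

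In glutathione synthesis, Gclc encodes the catalytic subunit of glutamate-cysteine ligase. Its levels were 24.2, 23.9, 23.1 and 20.4 CPM at 0 days and 22.9, 28.4, 24.8 and 24.3 CPM at 10 days. They were 19.6, 18.9, 18.8 and 18.7 CPM at 30 days and 20.5, 25.2, 23.6 and 27.9 CPM at 60 days. The 30 day libraries were below all others, and the other 3 groups overlapped. Gclc fell by 0.27 ± 0.09 on the log2 scale at 30 days against 0 days (adjusted p = 0.0188, edgeR), but with library totals it was above 0 (0.23) and the call was lost with upper-quartile scaling (-0.14) and without unoperated replicate 1 or 2. It fell by 0.40 ± 0.09 from 10 to 30 days (adjusted p = 0.00207, edgeR). Against 0 days the 10 day value was 0.13 ± 0.09 (adjusted p = 0.231, edgeR) and the 60 day value 0.09 ± 0.09 (adjusted p = 0.449). With library totals both were called higher (0.79 and 0.50), and upper-quartile scaling called the 60 day value (0.23, adjusted p = 0.0444).

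Gclm encodes the modifier subunit, which raises the affinity of the ligase for glutamate. Its levels were 19.6, 20.9, 22.4 and 18.6 CPM at 0 days and 25.7, 26.0, 24.4 and 28.7 CPM at 10 days. At 30 days they were 16.9, 17.7, 16.2 and 17.1 CPM, and at 60 days 16.7, 14.4, 13.5 and 13.9 CPM. The 10 day libraries were above, and the 30 and 60 day libraries below, every unoperated library. Gclm rose by 0.36 ± 0.08 on the log2 scale at 10 days (adjusted p = 0.0012, edgeR), fell by 0.62 ± 0.08 from 10 to 30 days (adjusted p = 1.61e-05) and was 0.84 ± 0.08 lower at 60 than at 10 days (adjusted p = 4.4e-07). Against 0 days it fell by 0.26 ± 0.08 at 30 days (adjusted p = 0.0111, edgeR), where library totals turned the call to higher (0.23, adjusted p = 0.0212) and the call was lost with upper-quartile scaling (-0.14, adjusted p = 0.127) and without unoperated replicate 3 (adjusted p = 0.0505). At 60 days it fell by 0.48 ± 0.09 (adjusted p = 0.000167, edgeR), a call that was lost with library totals (-0.07, adjusted p = 0.469). The Gclm promoter (chr2:213031885-213032184, plus strand) is shown because it is the other member with the core of the antioxidant response element, 172 to 164 bases before the start on the strand opposite to the gene, in capitals.
Gclm: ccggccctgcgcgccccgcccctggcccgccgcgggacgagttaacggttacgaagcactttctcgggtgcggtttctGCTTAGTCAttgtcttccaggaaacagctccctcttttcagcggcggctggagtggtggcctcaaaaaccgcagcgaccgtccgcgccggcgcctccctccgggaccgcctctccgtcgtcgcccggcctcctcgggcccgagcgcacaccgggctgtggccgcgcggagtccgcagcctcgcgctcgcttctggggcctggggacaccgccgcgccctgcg
The matches in Sod2 and Gclm make 2 of the 8 member promoters, beside 12.1% of all promoters. Any part of the motif in the levels of these genes was not tested.

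**Figure D3:**
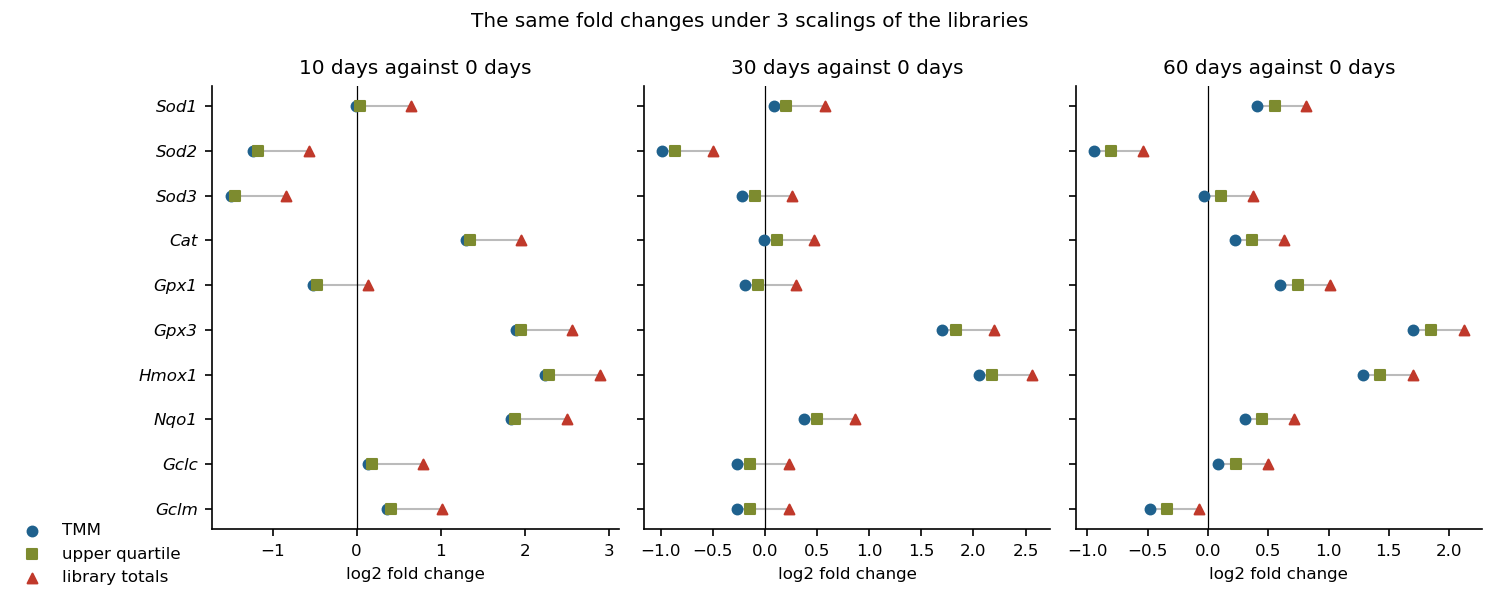
Log2 fold change (x axis) of the 10 enzymes against 0 days at 10, 30 and 60 days with TMM, upper-quartile and library-total scaling. Library totals move every value to the right and turn Gpx1 at 10 days and Gclc and Gclm at 30 days from below to above 0. Sod1 at 10 days, Sod3, Cat and Gpx1 at 30 days and Sod3 at 60 days, none called with TMM, also turn. Sod2 stays below 0 and Gpx3 and Hmox1 above 0 at all 3 times.

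Ratios of 2 members within a library do not depend on the scaling, and were described without a test. The log2 ratio of Sod2 to Sod1 was 1.51 ± 0.07 (SD, n = 4) at 0 days and 0.30 ± 0.12, 0.44 ± 0.20 and 0.16 ± 0.16 at 10, 30 and 60 days. All 12 injured libraries had a lower ratio of the mitochondrial to the cytosolic dismutase than any unoperated library. The log2 ratio of Gpx3 to Gpx1 was -1.49 ± 0.19 at 0 days and 0.94 ± 0.14, 0.42 ± 0.41 and -0.36 ± 0.48 at the later times. All 12 injured libraries had a higher ratio of the secreted to the intracellular peroxidase than any unoperated one, with a step down at each later time in the means. Cat to Gpx1 went from -0.70 ± 0.39 to 1.18 ± 0.35 at 10 days without overlap, and overlapped with 0 days at 30 days (-0.50 ± 0.22) and 60 days (-0.997 ± 0.27). Hmox1 to Hmox2, the constitutive haem oxygenase, was -2.80 ± 0.14 at 0 days and -0.89 ± 0.33, -1.27 ± 0.38 and -1.66 ± 0.36 later, again with no overlap. The ratio of Gclm to Gclc, the 2 subunits of 1 enzyme, was -0.17 ± 0.11 at 0 days and 0.06 ± 0.17, -0.17 ± 0.06 and -0.73 ± 0.30 later, overlapping with 0 days each time.

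**Figure D4:**
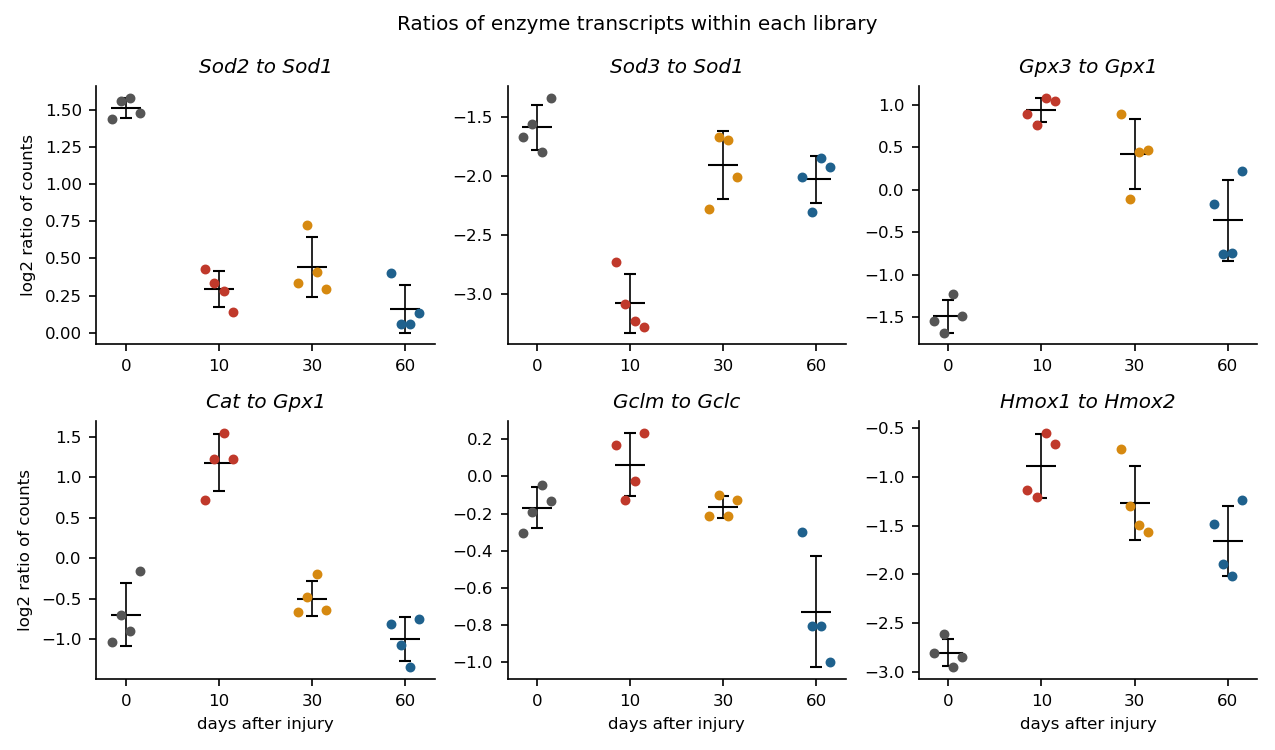
Log2 ratio of the fragment counts of 2 genes within each library (y axis) by days after injury (x axis), 1 point a library with the group mean and standard deviation. Sod2 to Sod1 lies lower, and Gpx3 to Gpx1 and Hmox1 to Hmox2 higher, in every injured library than in every unoperated one.

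Other genes of redox metabolism were taken from lists. Of 11 tested genes of NRF2 and its regulators, 7 were called higher and 3 lower at 10 days, with a median log2 fold change of 0.54 beside 0.06 for all tested genes (10 higher and 0 lower with library totals). At 30 days 2 were higher and 2 lower (median 0.05), and at 60 days 2 were higher and 4 lower (median -0.15, or 0.26 with library totals). Bach1, a repressor that competes with NRF2, rose by 1.46 ± 0.18 at 10 days (adjusted p = 2.45e-06, edgeR), and Maff, a small MAF partner, by 2.14 ± 0.27 (adjusted p = 5.01e-06). Sqstm1, the autophagy adaptor that binds KEAP1, rose by 0.89 ± 0.10 (adjusted p = 7.58e-07, edgeR). None of these 3 was called at 30 or 60 days. Cul3, the ligase scaffold that pairs with KEAP1, fell by 0.60 at 10 days, where library totals gave 0.05, and by 0.77 at 30 days. Nfe2l2, which encodes NRF2 itself, and Keap1, its cytosolic anchor, were chosen after their values were seen. Nfe2l2 had means of 72.7 ± 4.59 (SD, n = 4), 107 ± 2.89, 97.0 ± 9.18 and 88.2 ± 9.11 CPM at 0, 10, 30 and 60 days. Keap1 had means of 114 ± 11.2, 94.0 ± 4.57, 73.8 ± 5.88 and 92.2 ± 9.04 CPM.

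Of 20 genes of the thioredoxin and peroxiredoxin system, which reduces disulphides and peroxides in parallel with glutathione, 7 were higher and 9 lower at 10 days, 3 and 9 at 30 days and 4 and 8 at 60 days. Their medians against 0 days were near those of all tested genes or slightly below them (-0.00, -0.21 and -0.14), and with library totals they were above 0 (0.66, 0.28 and 0.27), with 12 higher and 7 lower, 10 and 3, and 11 and 1. Txn1, cytosolic thioredoxin, rose by 1.65 ± 0.10 at 10 days (adjusted p = 1.08e-09, edgeR), 0.62 at 30 days and 0.71 at 60 days. Glrx, a glutaredoxin, fell by 1.81 ± 0.25 at 10 days (adjusted p = 1.04e-05, edgeR). The 2 sestrins named by size moved apart: Sesn1 fell by 1.40, 1.36 and 0.73 at the 3 times, and Sesn3 rose by 1.75, 1.47 and 1.82. The last value was 1.18 without 60 day replicate 1, and the highest 60 day library was at 40.3 CPM beside a group median of 13.1 CPM. Srxn1, sulfiredoxin, which repairs over-oxidised peroxiredoxins and was chosen after its values were seen, had means of 20.3 ± 3.81 (SD, n = 4), 46.0 ± 11, 18.9 ± 3.03 and 23.0 ± 4.14 CPM.

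Of 25 other glutathione genes, 9 were higher and 10 lower at 10 days, 9 and 8 at 30 days and 11 and 5 at 60 days. Library totals gave 18 higher and 5 lower, 17 and 3, and 19 and 4. Mgst2, a microsomal glutathione transferase, rose from a mean of 2.05 ± 0.407 CPM (SD, n = 4) at 0 days to 93.6 ± 18.4 CPM at 10 days, a log2 fold change of 5.52 ± 0.41 (adjusted p = 1.55e-08, edgeR). It was still 2.77 and 1.37 higher at 30 and 60 days, the former 2.12 without 30 day replicate 1. Its relative Mgst3 went the other way at 10 days, from 246 ± 14.4 to 44.8 ± 22.1 CPM, and was not called later. Chac1, which degrades glutathione, was not called at 10 days and fell by 2.94 at 30 days and 3.03 at 60 days. Gsr, glutathione reductase, also chosen after its values were seen, had means of 37.1 ± 0.775, 66.1 ± 1.57, 32.9 ± 2.89 and 40.6 ± 2.63 CPM. Among 12 genes of NADPH supply, the reducing power for both systems, 5 were higher and 4 lower at 10 days and 4 and 5 at each later time, while library totals gave 8 and 2, 6 and 2, and 6 and 1. Tkt, transketolase of the pentose phosphate pathway, rose by 1.33, 1.02 and 0.75. Me1, cytosolic malic enzyme, fell by 0.80 (not called with library totals, -0.14), 1.62 and 1.30, and Idh2, the mitochondrial NADP-dependent isocitrate dehydrogenase, by 1.85 at 10 days.

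Of 16 genes of haem, iron and metal binding, 8 were higher and 4 lower at 10 days, 11 and 5 at 30 days and 9 and 4 at 60 days, with medians of 0.55, 0.93 and 0.80. The medians of all tested genes were 0.06, 0.05 and 0.04, or 0.72, 0.54 and 0.45 with library totals. Counts of this list with library totals are likewise not reported here. The metallothioneins Mt1a and Mt2A, which bind zinc and copper, rose by 5.18 ± 0.46 and 3.94 ± 0.36 at 10 days (adjusted p = 1.22e-07 and 1.52e-07, edgeR). They were 4.91 and 3.48 higher at 30 days and 2.28 and 1.70 higher at 60 days, and the 30 day value of Mt1a was 4.17 without 30 day replicate 1. Blvrb, biliverdin reductase B, which acts on a product of haem breakdown, rose by 2.05, 1.17 and 0.80, and Tfrc, the transferrin receptor, fell by 2.44, 1.33 and 1.14.

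The members in organelles were set beside other genes of those organelles. Of 16 genes of the mitochondrial matrix, where the Sod2 enzyme resides, none was called higher and 14, 16 and 11 were called lower at 10, 30 and 60 days, with medians of -1.20, -0.65 and -0.36. With library totals 12, 6 and 6 were lower and 2, 2 and 1 higher, and the 60 day median was 0.04. Mdh2, mitochondrial malate dehydrogenase, fell by 1.97 at 10 days and 0.70 at 30 days, beside 1.23 and 0.98 for Sod2. The 30 day call of Mdh2 was lost with library totals (-0.22). At 60 days Mdh2 was not called (-0.23, adjusted p = 0.186, edgeR). Of 20 peroxisome genes, the compartment of catalase, 3 were higher and 10 lower at 10 days, when Cat was 1.30 higher, 3 and 8 at 30 days and 2 and 10 at 60 days. The median of that list was -0.22 at 10 days, or 0.43 with library totals, which gave 14 higher and 1 lower. Ehhadh and Phyh, enzymes of peroxisomal fatty acid oxidation, fell by 0.90 and 1.26 at 10 days, the former call lost with library totals (-0.24).

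**Figure D5:**
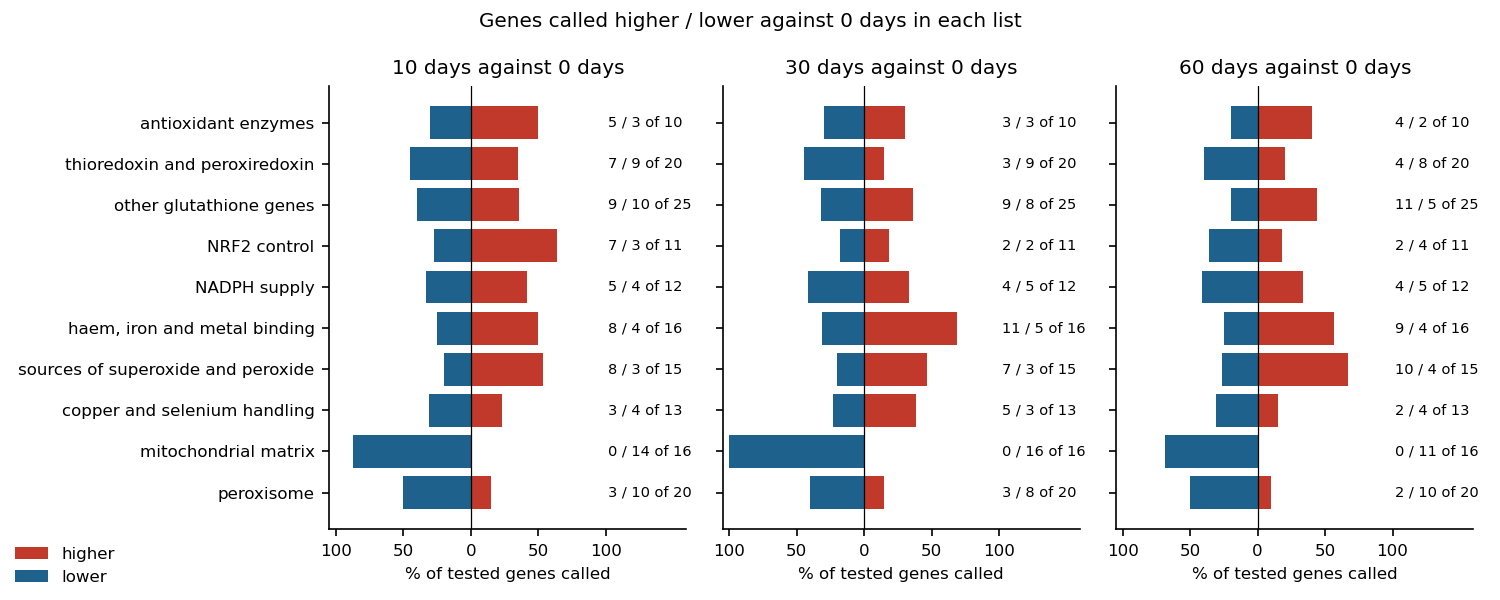
Percent of tested genes called higher (right) or lower (left) than at 0 days in the antioxidant enzymes and 9 related lists at 10, 30 and 60 days, with the counts of higher and lower genes printed. With TMM scaling the mitochondrial matrix list has no gene called higher and the enzymes have 5, 3 and 4, while with library totals the peroxisome list turns from 10 lower to 14 higher at 10 days.

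The genes most like each member in pattern were found by the root mean square difference of log2 CPM over the 16 libraries, after each gene's own mean was taken away, among 8225 tested genes with a mean of at least 5 CPM. Sod1 was nearest to Sart3 (0.073) and Srsf4 (0.088), and Gclm to Zc3h14 (0.074) and Dnaja2 (0.093). Sod2 was nearest to Pgm1 (0.082) and Dlat (0.091), with Dlat at 290 CPM at 0 days and 108, 137 and 143 CPM later. Sod3 was nearest to Sdhb (0.15) and Sdhc (0.16), which like it were lowest at 10 days, Sdhb with means of 734, 272, 571 and 683 CPM. Nqo1 was nearest to Gstt2 (0.20) and Map3k1 (0.21), and Hmox1 to Ppap2a (0.25) and Nudt5 (0.26). Gpx1 was nearest to As3mt (0.18) and Camta1 (0.21), Gpx3 to Gng10 (0.23) and Serpinf1 (0.24), and Gclc to Pkn3 (0.12) and Tubgcp3 (0.12). Cat had the largest differences, to Aco1 (0.33) and Hip1r (0.35). These sizes depend on how much a member itself varied. The root mean square of each member about its own mean was 0.19 for Sod1 and Gclc, 0.33 for Gclm and 0.46 for Gpx1. It was 0.48 for Sod2, 0.64 for Cat, 0.65 for Sod3, 0.72 for Nqo1, 0.78 for Gpx3 and 0.9 for Hmox1. These are descriptions over libraries that share their groups and scaling.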

How the data were processed

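The values used are the estimated counts of fragments for each gene that the authors deposited for the 16 libraries, as made by Cuffdiff. Per the submitters' processing notes, the build was rn5 and the tools were bcl2fastq 1.8.4, FastQC, TopHat2 2.0.9, Bowtie2 2.1.0.0, Cufflinks and Cuffdiff 2.1.1. The annotation, the treatment of strand and read filters are not given in the sources used here. Per the labels' protocols, libraries were made with a poly(A) mRNA kit. Of 17147 genes, 233 had a fractional value in some library, and values were rounded to whole counts. All 16 libraries were fitted together with edgeR 4.0.16 (R 4.3.3) by group: filterByExpr, TMM factors, robust quasi-likelihood F tests and Benjamini-Hochberg adjustment over the 11658 genes tested, called at an adjusted p under 0.05. The common biological coefficient of variation was 0.15. The fit was tested on simulated data. CPM are counts over TMM-scaled totals, and 3 counts correspond to 0.0752 to 0.175 CPM before scaling.

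The 10 members, the 9 pathway lists and the 9 cell type marker lists (211 genes, 203 in the table) were chosen with earlier results of these data known. From each list the text names up to 4 genes with the largest absolute log2 fold change against 0 days among those called with a mean of at least 5 CPM, and for likeness 2 genes a member; some list genes are not reported here by name. Alternatives were RLE, upper-quartile and library-total scaling, DESeq2 1.42.0, limma-voom (limma 3.58.1), no filter, a mean of at least 1 CPM, only the groups compared, a block for the suffix of the column names, a covariate for the title letter, and fits without each of the libraries. Promoters came from RefSeq (GRCr8), and figures from matplotlib 3.10.9.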

Additional observations from a re-analysis of the deposited data

Results flagged for a closer look

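Gpx1 and Gclm moved to opposite sides of the unoperated level at different times, with all 4 libraries of each group on their side. For Gpx1 the log2 fold change was -0.53 at 10 days and 0.60 at 60 days against 0 days, and the direct comparison of 60 with 10 days gave 1.13 (adjusted p = 1.97e-05, edgeR). For Gclm it was 0.36 at 10 days, -0.26 at 30 days and -0.48 at 60 days, and the direct comparisons gave -0.62 for 30 against 10 days (adjusted p = 1.61e-05, edgeR) and -0.84 for 60 against 10 days (adjusted p = 4.4e-07). The direct comparisons kept their direction and call with library totals, but the side of the unoperated level did not: Gpx1 at 10 days was then at 0.13 and Gclm at 30 days at 0.23. No library stood apart within any of the 40 groups of 4 that the members form, by Dixon's test at the 95% level. Among 60 groups of ratios and marker sums, 2 held a library apart from the rest, where chance flags about 1 in 20: the erythroid marker sum was 1950 CPM in unoperated replicate 3, and that of smooth muscle and pericytes was 123 CPM in replicate 2 at 30 days.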

How the results depend on the processing

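The count of members called kept within 1.5 times its value under every alternative, and leaving out 1 library gave 8 to 8 members at 10 days, 5 to 6 at 30 days and 6 to 7 at 60 days against 0 days. RLE scaling and DESeq2 changed no call or direction of a member. With only the 30 and 60 day groups in the fit, 1530 genes were called between them in place of 2636. Library totals raised the share of called genes that were higher from 53.1%, 52.2% and 50.7% at 10, 30 and 60 days to 87.4%, 84.1% and 82.7%, and upper-quartile scaling to 57.6%, 62.2% and 63.6%. Members called higher and lower with totals were 7 and 2, 5 and 1, and 8 and 1.

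Values that changed sign against 0 days with library totals were Sod1 (0.647) and Gpx1 (0.132) at 10 days, Sod3 (0.258), Cat (0.468), Gpx1 (0.295), Gclc (0.227) and Gclm (0.232) at 30 days, and Sod3 (0.377) at 60 days. Between injured groups these were Sod1 from 10 to 30 days (-0.073) and Sod2 (-0.0443) and Gpx3 (-0.0813) from 30 to 60 days. Other genes were Cul3 (0.0548), Maoa (0.435), Sephs2 (0.213) and Keap1 (0.379) at 10 days, Gsr at 30 days (0.322) and Keap1 at 60 days (0.0967), and 13 further calls of other named genes were lost. Upper-quartile scaling turned Sod1 at 10 days (0.0432), Cat at 30 days (0.112), Sod3 at 60 days (0.111) and Gclc at 60 against 10 days (0.0456). A mean of at least 1 CPM turned Sod1 (0.00321), Cat (0.0254) and Sod3 (0.0137) in the same comparisons, and the title letter turned Sod3 at 60 days (0.0465). Gpx3 from 30 to 60 days turned with limma-voom (-0.00663), no filter (-0.00542) and the 2 groups alone (-9.51e-05). Leaving out 1 library turned Cat at 30 days (-0.174 to 0.222), Sod1 at 10 days (-0.0423 to 0.00409), Sod3 at 60 days (-0.13 to 0.0758), Gpx3 (-0.066 to 0.0696) and Sod2 (-0.0174 to 0.105) from 30 to 60 days, Gclc at 60 against 10 days (-0.1 to 0.028) and the ratio of Gclm to Gclc at 30 days against 0 days (-0.0407 to 0.0457). None of these was called in the main fit except Gpx1 at 10 days, Gclc and Gclm at 30 days and the other genes named under library totals. Beyond the scaling itself, the cause was not tested.

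The labels do not state that the column suffixes pair the libraries. Deviations of 24 same-suffix pairs correlated at -0.24 to 0.22 (mean 0.0013), and those of 72 other pairs at -0.37 to 0.28 (mean -0.00012). Such values show no shared deviation by suffix, but they cannot show that the libraries are unpaired. With the suffix as a replicate block, 7244, 7474 and 6762 genes were called at 10, 30 and 60 days against 0 days and 5397, 2549 and 7035 from 10 to 30, 30 to 60 and 10 to 60 days, and no member's call changed. Hmox1, with the fewest fragments, had at least 139 in every library.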

Other observations

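Genes that generate superoxide and peroxide were described by the same rule. Of 15 tested, 8 were called higher and 3 lower at 10 days, 7 and 3 at 30 days and 10 and 4 at 60 days, with median log2 fold changes of 0.40, 0.43 and 1.00. The medians of all tested genes were 0.06, 0.05 and 0.04, or 0.72, 0.54 and 0.45 with library totals. Counts of this list with library totals are not reported here. Cyba, the membrane subunit of the phagocyte NADPH oxidase, rose by 0.68, 1.08 and 1.03. Ncf1, a cytosolic subunit of the same oxidase, fell by 1.25 ± 0.20 at 10 days (adjusted p = 4.43e-05, edgeR) and 0.96 at 30 days. Cybb and Nox4 were chosen after their values were seen. Cybb, the catalytic subunit, had a log2 fold change of 2.39 at 10 days, so Cyba, Cybb and Ncf1 did not all move one way. Nox4, a constitutively active oxidase, stood at 1.85, 2.38 and 2.51. Maoa, monoamine oxidase A, fell by 0.85 at 30 days and 0.86 at 60 days.

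Of 13 genes of copper and selenium handling, on which Sod1, Sod3 and the glutathione peroxidases depend for their metal or selenocysteine, 3 were higher and 4 lower at 10 days, 5 and 3 at 30 days and 2 and 4 at 60 days. With library totals most were higher, 11 against 1 lower, 7 against 1 and 8 against 1. Atox1, a copper chaperone, rose by 0.60 at 30 days and 0.69 at 60 days, and Sepp1, the selenium carrier of plasma, by 0.87 and 0.81. Pstk, which acts in selenocysteine synthesis, fell by 2.03 ± 0.18 at 10 days (adjusted p = 8.99e-08, edgeR), and Sephs2, which makes the selenium donor, by 0.83 at 30 days and 0.78 at 60 days. Ccs, the copper chaperone of Sod1, and Sepw1, a small muscle selenoprotein, are listed at 0 in all 16 libraries.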
